A study of Homo sapiens with 10 samples.

Results

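The regions described here are open-chromatin peaks far from annotated transcript starts in MDA-MB-231, an immortal human cell line from a triple-negative breast tumour. They are the peaks that the authors' deposited list puts in its distal intergenic class, outside every transcript it annotates, and more than 50000 bases from the nearest transcript start. Of the 161934 peaks in the list, 11749 met this rule, which is 7.26% (95% Wilson interval 7.13 to 7.38). They made up 24.5% of the 47897 distal intergenic peaks (24.1 to 24.9) and 63.1% of the 18632 peaks of any class that lie beyond 50000 bases. The peaks come from 5 ARID1A knockout and 5 control libraries of MDA-MB-231 made by ATAC-seq, an assay that uses a hyperactive transposase, Tn5, to insert adapters into open DNA. The labels do not say whether the knockout is 1 clone or a pool, or whether replicates came from separate cultures. The list holds 1 set of peaks for the whole series with no value per library, so knockout could not be set against control here, and the depth behind each peak is unknown. Peaks are not replicates. Intervals below cover counting error over peaks only, and differences between classes of peaks were not tested.

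ARID1A belongs to the BAF (SWI/SNF) complex, which moves and ejects nucleosomes and is known for keeping enhancers open. Enhancers are short stretches that bind transcription factors and raise the activity of promoters, sometimes across very long distances. A gene desert is a long stretch with no protein-coding gene, and deserts beside developmental regulators are known to hold many such enhancers. AP-1, a dimer of FOS and JUN family proteins, is a common factor at distal open sites in breast cancer lines of the basal type.

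A few of the 11749 distant peaks covered a transcript start that RefSeq annotates and the list's own annotation did not use. The starts lay inside 74 of the peaks (0.630%, 0.502 to 0.790). Such peaks were longer, with a median of 715 bases (95% interval 573 to 810) against 482 bases (477 to 488) for the distant peaks that covered no such start. Of the 74, 16 exceeded 1000 bases (21.6%), against 1094 of the other 11675 (9.37%). The longest of the distant peaks was one of them: it measured 2782 bases on chromosome 13 (chr13:74133780-74136561) and covered 2 RefSeq starts of KLF12, a zinc-finger transcription repressor, while the list's nearest start, that of LINC00402, was 94896 bases away. Another, of 1569 bases on chromosome 1, covered a RefSeq start of SIPA1L2, a GTPase-activating protein, with the list's nearest start 67826 bases away. The windows around both starts, chr13:74134355-74134654 and chr1:232630084-232630383, are on the minus strand of GRCh38.p14 in RefSeq and run from 250 bases before the start to 50 after it. They are shown because both are CG-rich, as many promoters of protein-coding genes are, with CG dinucleotides in capitals.
KLF12: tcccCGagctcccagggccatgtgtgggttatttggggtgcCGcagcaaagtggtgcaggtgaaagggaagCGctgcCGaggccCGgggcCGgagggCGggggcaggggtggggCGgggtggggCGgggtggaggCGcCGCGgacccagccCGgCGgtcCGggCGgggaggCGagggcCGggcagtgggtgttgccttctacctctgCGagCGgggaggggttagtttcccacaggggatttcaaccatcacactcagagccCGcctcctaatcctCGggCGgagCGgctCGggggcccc
SIPA1L2: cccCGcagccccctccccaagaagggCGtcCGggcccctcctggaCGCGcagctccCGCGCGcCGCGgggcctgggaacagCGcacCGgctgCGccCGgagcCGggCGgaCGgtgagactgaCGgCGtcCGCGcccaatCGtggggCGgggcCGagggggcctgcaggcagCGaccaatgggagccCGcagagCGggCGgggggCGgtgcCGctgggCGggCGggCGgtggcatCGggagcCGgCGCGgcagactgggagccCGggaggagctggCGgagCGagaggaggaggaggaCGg

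The KLF12 window held 25 CG dinucleotides at a GC content of 72.3%, and the SIPA1L2 window held 41 at 79.7%. Most starts inside the distant peaks were unlike these. Their 80 windows had a median GC content of 46.5%, against 50% for all 12814 windows of long non-coding RNA (lncRNA) genes and 58.7% for all 35116 RefSeq windows. A GC content of 60% or more was reached by 13 of the 80 (16.3%), against 27.5% of lncRNA windows and 46.8% of all windows. Among 91 distant peaks that overlapped any part of a start window, 5 did so at a protein-coding gene and the other 86 at lncRNA genes alone. Beside KLF12 and SIPA1L2, those 5 were LOC107985915, LOC105369787 and LOC105377864, whose products have no role given here.

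The AP-1 motif TGANTCA, searched on both strands, was present in 15 of the 80 windows (18.8%, 11.7 to 28.7), against 10.3% of lncRNA windows (9.80 to 10.9) and 7.71% of all windows (7.43 to 7.99). The 80 windows all have their start inside a peak, while the others were taken whether or not a peak lay there. Starts inside other classes of peaks were not counted, so the contrast cannot be called particular to distant peaks, and it was not tested. The 80 windows also had a lower median GC content (46.5%) than lncRNA windows (50%), and its part was not tested. The interval counts the 80 windows as separate, though some of them overlap. The 4 windows with this motif that lie in the longest peaks are printed with the motif in capitals, each cut to the stretch inside the peak. They belong to lncRNA genes: LOC105374721 on the plus strand (chr5:34585632-34585887), LOC107985362 on the minus strand (chr1:233707467-233707766), LINC02879 on the plus strand (chr18:29156607-29156906) and LOC105373448 on the minus strand (chr2:17441879-17442022).
LOC105374721: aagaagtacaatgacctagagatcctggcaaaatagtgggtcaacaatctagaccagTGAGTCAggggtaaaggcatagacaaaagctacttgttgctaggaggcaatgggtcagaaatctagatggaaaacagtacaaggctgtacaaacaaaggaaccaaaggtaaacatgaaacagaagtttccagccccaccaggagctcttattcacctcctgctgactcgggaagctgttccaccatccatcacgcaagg
LOC107985362: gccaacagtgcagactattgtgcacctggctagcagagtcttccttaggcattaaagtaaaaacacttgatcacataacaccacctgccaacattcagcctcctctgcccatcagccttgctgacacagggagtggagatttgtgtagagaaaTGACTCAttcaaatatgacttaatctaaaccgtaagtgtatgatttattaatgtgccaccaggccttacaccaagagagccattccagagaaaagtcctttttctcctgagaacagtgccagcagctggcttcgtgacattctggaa
LINC02879: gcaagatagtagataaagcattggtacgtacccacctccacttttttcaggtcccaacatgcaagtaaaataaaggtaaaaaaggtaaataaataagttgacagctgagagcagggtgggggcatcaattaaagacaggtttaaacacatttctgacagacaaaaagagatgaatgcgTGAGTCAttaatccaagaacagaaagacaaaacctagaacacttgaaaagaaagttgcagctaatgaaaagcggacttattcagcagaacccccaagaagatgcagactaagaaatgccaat
LOC105373448: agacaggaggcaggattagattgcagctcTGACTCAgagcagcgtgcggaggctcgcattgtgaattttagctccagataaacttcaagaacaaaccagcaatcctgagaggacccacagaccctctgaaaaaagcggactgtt

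The motif lay 149, 97, 72 and 65 bases before the start in these windows, in the order printed, and the peaks around them measured 1221, 1172, 939 and 918 bases. The other motifs were searched on both strands too, and for each of them the interval of the 80 windows included the share in lncRNA windows. The TEAD motif GGAATG was in 15 of 80 (18.8%) against 17.1% of lncRNA windows, the GATA motif AGATAA in 11 (13.8%) against 14.5%, and the FOX motif TGTTTAC in 7 (8.75%, 4.30 to 17.0) against 4.42%. RUNX TGTGGTT was in 6 (7.50%) against 5.25%, a CTCF motif in 3 (3.75%) against 2.23%, and ETS CCGGAAGT in 0 (upper bound 4.58%) against 2.08%. A match shows that the letters are there and not that the factor binds. These windows cover under 1% of the distant peaks. The sequence of the other peaks was not used here.

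The distant peaks lay at a median of 84930 bases from the nearest transcript start, with quartiles of 63472 and 125576 bases. The values on either side of the limit were close: 50005, 50005 and 50010 bases just inside it, and 50000, 50000 and 49997 bases just outside. Beyond 100000 bases there were 4526 peaks (38.5%), beyond 200000 bases 998 (8.49%), beyond 500000 bases 56 and beyond 1000000 bases 5. They fell evenly on both sides of the nearest start: 49.9% (49.0 to 50.8) lay upstream, against 57.5% (57.0 to 58.0) of the 36148 distal intergenic peaks within 50000 bases, called near intergenic peaks below. The class leaves out transcripts, which run downstream from their start, so this contrast may partly reflect the class. The nearest transcript was at most 200 bases long for 12.2% of the distant peaks (11.7 to 12.8), the size of small nuclear RNAs, microRNA precursors and their pseudogenes, against 9.71% of the near ones.

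In length the distant peaks resembled those in introns. Their median was 482 bases (477 to 489), with quartiles of 323 and 714 and a maximum of 2782. The 37334 peaks in introns after the first had a median of 484 bases (481 to 487), near intergenic peaks 514.5 (511 to 518) and all peaks 539 (537 to 541). Over 1000 bases there were 9.45% of distant peaks (8.93 to 9.99), 11.7% of near intergenic, 9.62% of late intron and 16.9% of all peaks. Together the distant peaks covered 6.56 Mb. Length declined with distance: the median was 490 bases (482 to 500) between 50000 and 75000 bases from a start, 482 (470 to 497) between 100000 and 150000, 450 (429 to 468) between 200000 and 500000, and 355.5 (288 to 459, 56 peaks) beyond 500000.

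**Figure D1:**
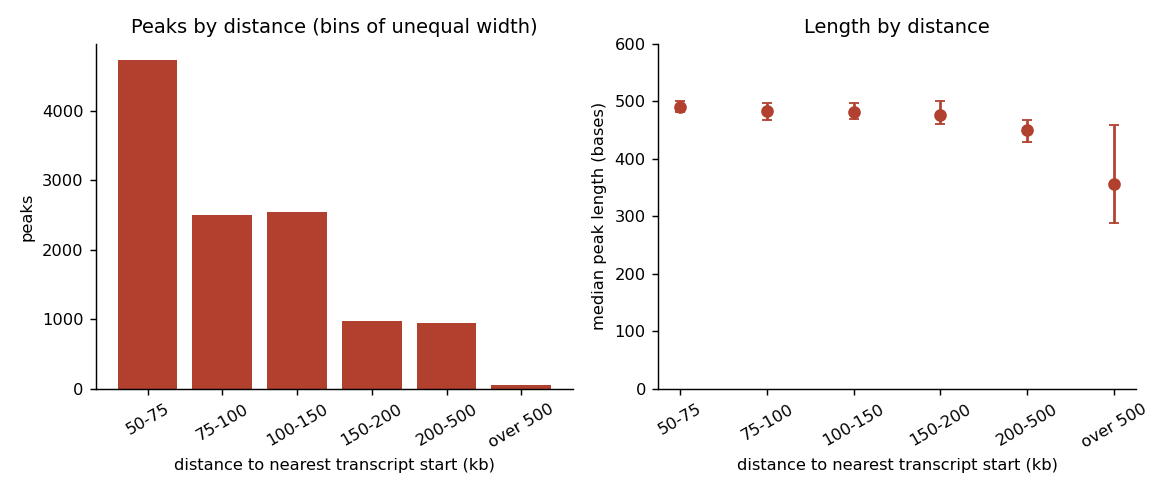
Number of distant peaks (left) and their median length in bases with its 95% interval (right) by distance to the nearest transcript start in kb; bins are of unequal width. The median is 490 bases in the first bin and 355.5 in the last, which holds 56 peaks.

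After KLF12, the longest peaks were 2663 bases on chromosome 12 between KCNA5, a potassium channel, and NTF3, the neurotrophin-3 gene, and 2494 bases on chromosome 5 between DAP and CTNND2, which codes for delta-catenin. A peak of 2470 bases followed on chromosome 12 between ATXN7L3B and KCNC2, and one of 2235 bases on chromosome 10 between PTPN20 and GDF10, a TGF-beta family ligand that was also its nearest gene at 132580 bases. In all, 14 distant peaks reached 2000 bases (0.119%), against 0.329% of near intergenic peaks.

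Chromosome 13, which has few genes for its length, stood out in how densely it held distant peaks. It carried 926, or 9.63 per Mb of the span between its first and last annotated gene, against 3.97 per Mb over chromosomes 1 to 22 and X and a median of 3.52 over the 23 chromosomes. Of its distal intergenic peaks, 38.2% lay beyond 50000 bases (36.3 to 40.2), followed by chromosome 4 with 33.2% (31.5 to 35.0) and chromosome 6 with 30.5% (29.0 to 32.1). The gene-rich chromosome 19 had 10 distant peaks, 0.171 per Mb and 1.31% of its distal intergenic peaks (0.712 to 2.39). Chromosome 22 had 25, or 5.45% (3.72 to 7.92). By number, chromosome 2 came first with 1381, followed by chromosomes 6, 5, 13 and 4 with 1020, 987, 926 and 886. These 5 chromosomes held 44.4% of all distant peaks.

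Chromosomes also differ in how much sequence lies far from the transcript starts that the list names. Counted per Mb of sequence over 50000 bases from any transcript start in the list, chromosome 13 still had the highest density with 29.0 peaks, followed by chromosome 20 with 25.8, chromosome 2 with 21.3 and chromosome 6 with 20.6. The value over all chromosomes was 13.8 and the median 12.96. Chromosome 18, with 3.34 protein-coding genes per Mb as sparse as chromosome 13 with 3.49, had 7.51 distant peaks per Mb of such sequence. Chromosomes X and 22 were low with 3.94 and 2.48, and chromosome 19 had 1.67. The starts are only those the list names as nearest to some peak, so few peaks can enlarge the sequence counted as far. On chromosome X, with 5.44 protein-coding genes per Mb, 47.1% of the span counted as far. On chromosome 2, with 5.17 per Mb, it was 26.7%. How much this lowers the density of chromosomes with few peaks was not tested. DNA copy number, which differs between chromosomes in cancer lines and changes how readily a peak is called, was not measured, and its part in these densities was not tested.

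**Figure D2:**
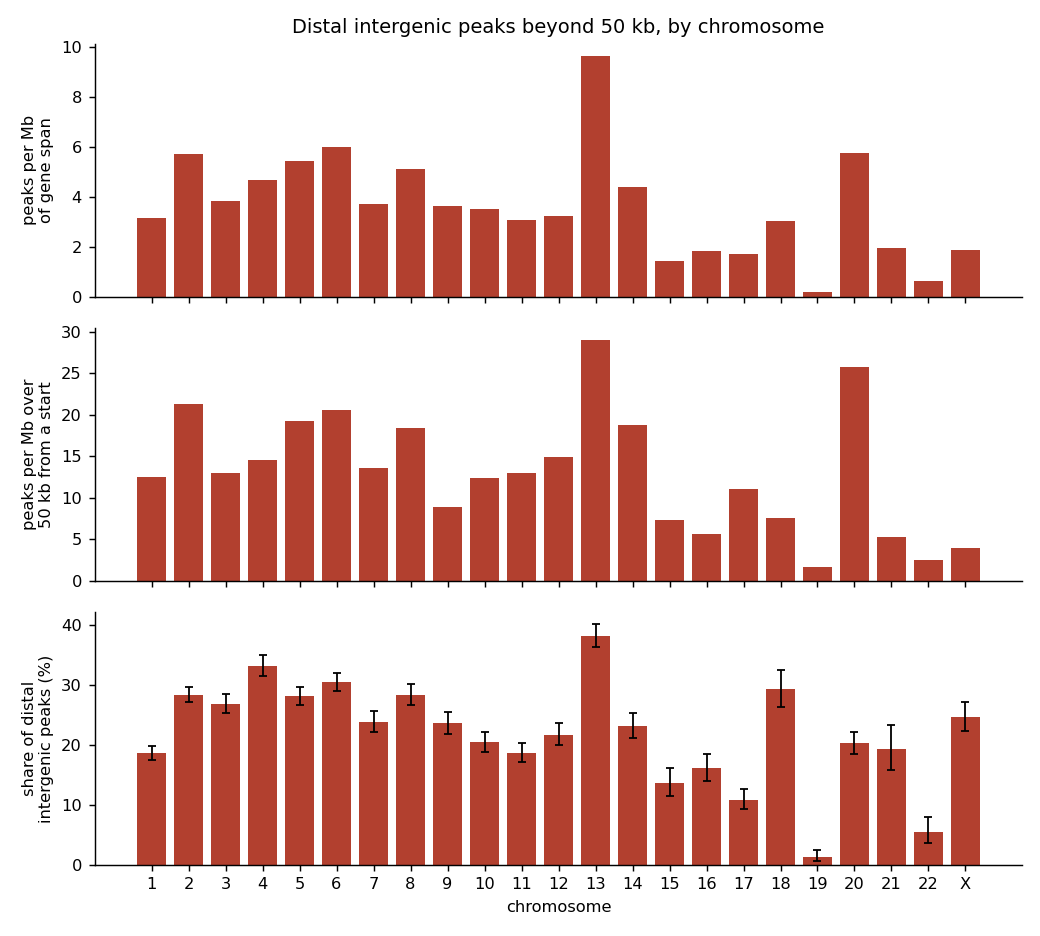
Distant peaks on chromosomes 1 to 22 and X as peaks per Mb of gene span (top), peaks per Mb of sequence over 50 kb from a transcript start named in the list (middle) and share of distal intergenic peaks in percent with 95% Wilson intervals (bottom). Chromosome 13 is highest in each panel and chromosome 19 is lowest.

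Most distant peaks had another peak close by. The gap to the nearest peak of any class had a median of 6063 bases (5888 to 6227), against 4173.5 (4103 to 4243) for near intergenic peaks and 4685.5 (4636 to 4733) for late intron peaks. A gap of at most 10000 bases was found for 64.0% of distant peaks (63.1 to 64.9), 79.8% of near intergenic and 75.4% of late intron peaks. Peaks with no other peak within 50000 bases on either side made up 5.93% of the distant class (5.52 to 6.38) and 1.73% of the near intergenic class (1.60 to 1.87). For 87.9% of distant peaks the nearest peak was itself a distant peak, for 9.90% a near intergenic one, and for 0.562% (66 peaks) a promoter peak. The rule largely sets these shares, since a close neighbour of a peak so far from a start is mostly far from one too. The gap from 1 distant peak to the next on the same chromosome had a median of 15504 bases with quartiles of 4985 and 74827, and 40.1% of these gaps (39.2 to 41.0) were at most 10000 bases. Spacing was tighter on chromosome 14, with a median of 8421.5 bases to the next distant peak, than on chromosome X with 54026.5.

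**Figure D3:**
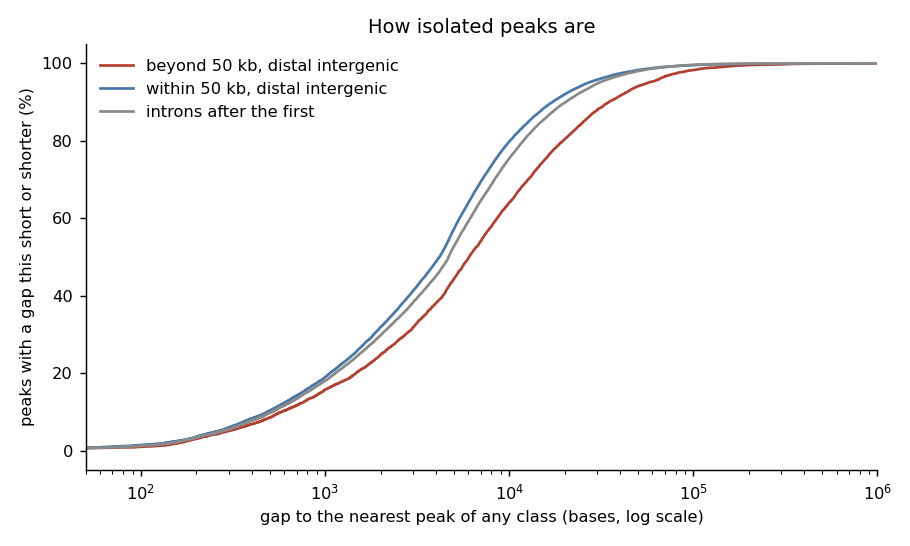
Share of peaks (percent) whose nearest peak of any class lies within the gap on the x axis (bases, log scale), for distant, near intergenic and late intron peaks. The curve of the distant peaks runs to the right of the others, with 64.0% at 10000 bases against 79.8% and 75.4%.

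Chaining distant peaks at gaps of at most 12.5 kb, the usual distance for joining enhancers, gave 337 clusters of 5 or more peaks. They held 2350 of the distant peaks (95% interval of the share 19.3% to 20.7%), while 3931 (33.5%, 32.6 to 34.3) stood alone. The clusters spanned a median of 29.59 kb, of which a median of 12.8% was covered by peaks, and 44 clusters held 10 or more. Peaks in denser company were longer: the median was 466 bases (456 to 477) for those alone, 482 (475 to 493) in chains of 2 to 4, 513 (490 to 536) in clusters of 5 to 9, and 525.5 (498 to 567) in those of 10 or more. Chromosome 2 had 45 clusters, chromosome 8 had 31 and chromosome 6 had 29. On chromosome 8 they held 31.8% of the chromosome's distant peaks, against 21.2% on chromosome 2 and 18.6% on chromosome 13.

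The cluster with most peaks lay on chromosome 14 between SEL1L, an adaptor of endoplasmic-reticulum-associated degradation, and LOC124903401, with 28 peaks in 113641 bases (chr14:83329262-83442902). The nearest transcript of its peaks was most often the U7 pseudogene RNU7-51P, and the nearest protein-coding gene was 520470 bases away. The next held 23 peaks in 105781 bases of chromosome 20 between TFAP2C, which codes for the transcription factor AP-2 gamma of breast epithelium, and BMP7, a bone morphogenetic protein whose gene lay 113609 bases from it. A cluster of 20 peaks in 88299 bases of chromosome 6 lay between ERMARD and DLL1, a ligand of Notch receptors, 11163 bases at most separating its peaks, and a second of 14 peaks lay in the same interval. Another 20 peaks spanned 104233 bases of chromosome 6 between ADGRF1, an adhesion receptor, and TNFRSF21, known as death receptor 6. On chromosome 7, 19 peaks in 65971 bases lay between UNCX, a homeobox gene, and MICALL2, an adaptor of actin and cell junctions.

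The other clusters among the first 10 held 15 peaks each. On chromosome 6, 1 lay between TTLL2 and AFDN, which codes for the junction protein afadin, with the lncRNA LINC02538 as nearest gene, and another lay between CD109, a cell-surface binder of TGF-beta, and COL12A1, a collagen. On chromosome 14, 1 lay between the kinase gene VRK1 and BCL11B, a zinc-finger factor. On chromosome 8, 1 lay between MYC and GSDMC near the lncRNA LINC00824, 540202 bases from MYC, and another between ADCY8 and EFR3A, 54101 bases from EFR3A.

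**Figure D4:**
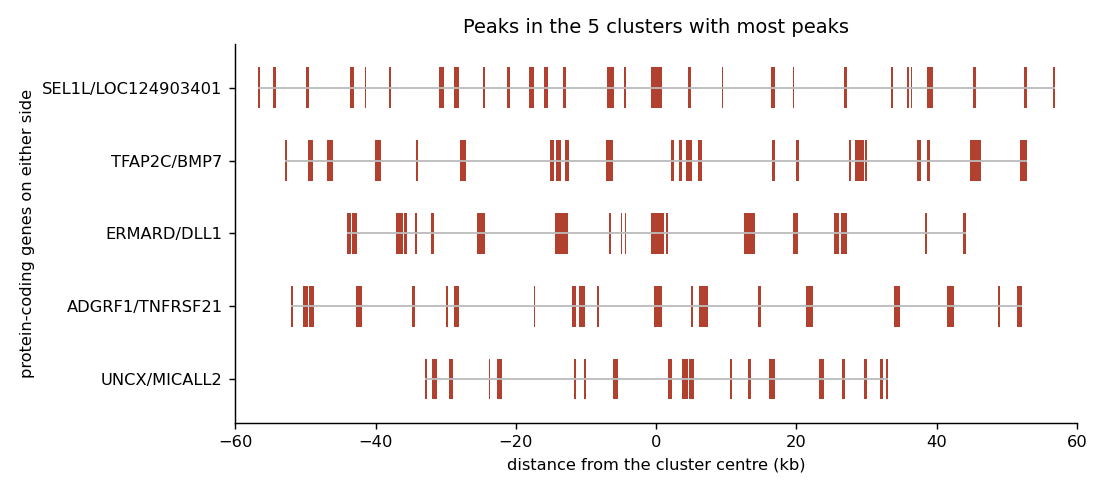
Positions of peaks in the 5 clusters with most peaks, as distance from the cluster's centre in kb; each bar is 1 peak drawn to scale, and rows are named by the protein-coding genes on either side. The clusters hold 28, 23, 20, 20 and 19 peaks from top to bottom, and span up to 113.641 kb.

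The name gene desert was set against RefSeq genes. The check is not independent of the rule, since sequence over 50000 bases from a start lies mostly in long intervals between genes. Intervals of at least 500000 bases between neighbouring protein-coding genes numbered 696 and made up 912 Mb, or 30.9% of the gene span. They held 7583 of the 11719 distant peaks on chromosomes 1 to 22 and X (64.7%, 63.8 to 65.6), against 23.9% (23.5 to 24.4) of near intergenic peaks and 15.5% (15.3 to 15.6) of all peaks. The density was 8.31 distant peaks per Mb inside such deserts and 2.02 in the rest of the gene span, a contrast that the distance in the rule largely sets. Per Mb of the sequence between protein-coding genes that the rule could reach, over 50000 bases from a start, the order turned round: deserts held 14.5 distant peaks per Mb and shorter intervals 30.5. Deserts made up 80.5% of that sequence and held 66.3% of the 11439 distant peaks in it. The starts are those the list names as nearest to some peak, so a stretch with few peaks can count as reachable where its transcripts go unlisted. Of the 11719 distant peaks on chromosomes 1 to 22 and X, 4136 lay outside any desert, 280 of them in a protein-coding gene or at a chromosome end. A median of 170264 bases (165799 to 175905) separated a distant peak from the nearest protein-coding gene, and 89.9% lay over 50000 bases from one. With a lower limit of 1000000 bases, 43.6% of distant peaks lay in a desert, and with RefSeq genes of every type as boundaries, 7.21%. Counted over all 11719 distant peaks, in deserts or not, 17.2% (16.6 to 17.9) overlapped an lncRNA gene of RefSeq. A protein-coding gene was overlapped by 257 (2.19%), most often PPARGC1A (22), RPS6KC1 (19), NBAS (18) and TENM3 (14). The deposited list calls all these peaks intergenic.

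Deserts differed widely in how many distant peaks they held. A peak was present in 608 of the 696 (87.4%), with a median of 7, and the 50 deserts with most held 2387 (20.4% of all). The first was the 2.40 Mb of chromosome 13 between SLC10A2, the ileal bile acid transporter, and DAOA, with 114 distant peaks or 47.5 per Mb. Also on chromosome 13, the 3.54 Mb between SPRY2, an inhibitor of receptor tyrosine kinase signalling, and SLITRK1, a neuronal membrane protein, held 88. On chromosome 1, 84 lay between CDC73, a subunit of the PAF1 complex, and KCNT2, a potassium channel. On chromosome 14, 83 lay between SEL1L and LOC124903401, and on chromosome 2, 79 lay between CTNNA2, a neural alpha-catenin, and SUCLG1, a subunit of succinyl-CoA synthetase. Density followed no single direction with desert length. The median was 5.62 distant peaks per Mb in the 243 deserts of 500000 to 750000 bases, 7.89 in the 133 of 750000 to 1000000, 5.32 in the 144 of 1000000 to 1500000, 8.26 in the 77 of 1500000 to 2000000 and 6.48 in the 99 of 2000000 bases or more. Summed over the deserts of each class, densities were 9.19, 9.74, 8.55, 9.02 and 7.06 per Mb. The last class includes 5 intervals of 6 Mb or more, the longest of 22439256 bases on chromosome 1 with 4 distant peaks. Centromeres and assembly gaps were not taken out of these lengths.

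**Figure D5:**
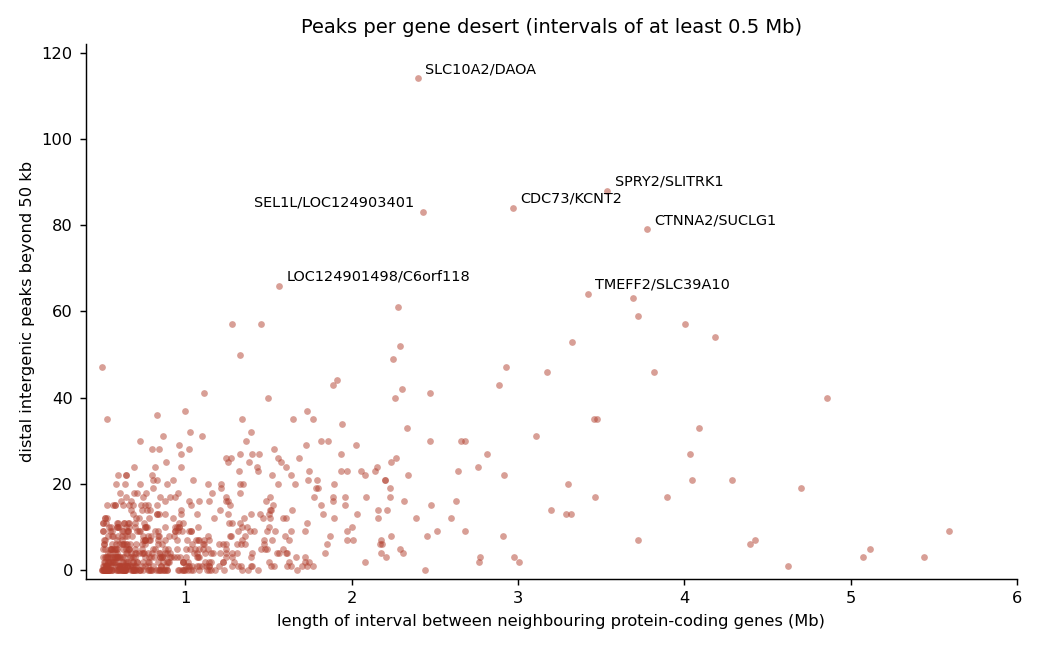
Number of distant peaks against the length in Mb of each interval of at least 0.5 Mb between neighbouring protein-coding genes. The 691 intervals under 6 Mb are drawn, and 5 longer ones are not. The interval between SLC10A2 and DAOA holds 114 peaks, and many intervals of similar length hold under 20.

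Deserts held fewer distant peaks per Mb where neither neighbouring gene had a peak at a start. Only distant peaks were counted in this comparison, and peaks nearer to a start were left out. Of the 696 deserts, 88 held no distant peak, while 9 held no peak of any class. For 462 deserts RefSeq start windows were at hand for both neighbours. In the 74 whose neighbours both lacked a peak at every such start, the median was 1.59 distant peaks per Mb (quartiles 0 and 4.82), and 25 deserts (33.8%) held none. With a peak at a start of 1 neighbour the median was 6.38 (3.01 to 13.4, 198 deserts, 14 of them with none), and with both it was 7.41 (2.97 to 14.7, 190 deserts, 22 with none). Summed over deserts, the densities were 3.12, 8.66 and 8.96 per Mb. Median desert lengths in these groups were 0.970, 1.02 and 0.928 Mb. The part of copy number and mappability was not tested. Single genes gave other values. A start peak was found for 194 of the 276 protein-coding genes (70.3%, 64.6 to 75.4) that were nearest to 10 or more distant peaks and had a start window, 65.5% (62.8 to 68.0) of those nearest to 1 to 9, and 70.2% (69.4 to 70.9) of those nearest to none.

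By the list's own annotation, 3534 genes were the nearest gene of at least 1 distant peak. Of these 1200 had only 1, and 167 had 10 or more, holding 19.7% of the distant peaks. An Ensembl identifier on chromosome 13, ENSG00000230474, had most, with 44 peaks between 67257 and 653548 bases from its start, and lies in the desert beside SLC10A2. It has no symbol paired here. Symbols could be paired with 1851 of the genes (52.4%). Several of the top genes were short pseudogenes within deserts: RNU7-51P had 39, the ribosomal protein pseudogene RPL7P45 36, the U6atac pseudogene RNU6ATAC28P 25, the prothymosin pseudogene PTMAP5 21, SOCS5P1 17 and the 5S pseudogene RNA5SP38 15. RNU7-51P and RNU6ATAC28P lie on opposite sides of the same stretch of chromosome 14. The first 20 paired genes end within a tie at 15, broken by identifier, and LOC124900528, MIR3144 and LINC02538 also had 15. Non-coding RNA genes among the first 20 were LOC105375553 and MIR5702, a microRNA, with 18 each, and TRIB1AL, an lncRNA beside TRIB1, with 16.

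Protein-coding genes among those 20 were MED30 (24 peaks), a subunit of Mediator, ICE1 (21), a part of the little elongation complex, MAP3K7 (19), the kinase TAK1, and TEX29 (19). ADGRF1 had 16. The Golgi mannosidase MAN1A1, the membrane repair protein gene DYSF, the N-glycan branching enzyme MGAT5, HMHB1 and the DNA ligase LIG4 had 15 each, as did the pseudogene TCP10L3. Peaks of these genes often lay to 1 side only. All 21 of ICE1, 19 of TEX29 and 15 of LIG4 were downstream of the start, and all 15 of MAN1A1 and of MGAT5 were upstream. The peaks of MAN1A1 had a median length of 661 bases and those of ICE1 631, against 417 for ENSG00000230474. Measured to the nearest protein-coding gene of RefSeq instead, 1951 of 19809 genes (9.85%) were nearest to a distant peak and 357 to 10 or more. LOC124903401 came first with 90, followed by SLC10A2 with 73, SLITRK1 with 68, DAOA with 61 and FLRT2, a cell-adhesion ligand, with 59.

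Groups of genes were then compared by how many of their members were the nearest protein-coding gene of a distant peak, beside 9.85% of all such genes. Nearness does not show that a peak acts on the gene. Among developmental transcription factors chosen for lying beside gene deserts, 45 of 62 had at least 1 (72.6%, 60.4 to 82.1), so this share partly reflects how the list was made. DACH1 had 34, MAF and SOX11 27 each, MYC 25 and SOX9, a factor of progenitor and cartilage cells, 22. The 22 peaks of SOX9 lay between 144495 and 770373 bases from it, and the 27 of SOX11 between 212502 and 669911. Some of the 27 of MAF lay inside its RefSeq gene body, and the farthest was 382682 bases from it. The cadherins and protocadherins counted, a part of these adhesion protein families in which many genes are known to adjoin deserts, had 18 of 24 (95% interval 55.1% to 88.0%), and 12 had 10 or more, against 1.80% of all protein-coding genes. This share too partly reflects which members were listed. CDH9 led with 41, then PCDH9 with 40, CDH2 (N-cadherin, a mesenchymal marker) with 22, PCDH7 with 20 and CDH4 with 19. RefSeq start windows of PCDH9, PCDH7 and CDH4 met a peak, while those of CDH9 and CDH2 met none.

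Of 19 genes beside intergenic regions known for breast cancer risk, also chosen for such a position, 14 had a distant peak (73.7%, 51.2 to 88.2): MYC 25, TBX3, a mammary developmental factor, 17, the cyclin gene CCND1 10, MRPS30 9 and KLF4 8. The 10 peaks of CCND1 lay within 52490 to 104927 bases of the gene with a median length of 623 bases. Secreted growth factors and matrix proteins had 10 of 26 (38.5%, 22.4 to 57.5), with BMP7 at 27, BMP2 at 22, TGFB2 at 21, and INHBA, a subunit of activin, and VEGFC, a lymphatic growth factor, at 13 each. Of 9 transcription factors of the epithelial-mesenchymal transition 4 had a distant peak (44.4%, 18.9 to 73.3): ZEB2 15, SNAI2 4, PRRX1 2 and TWIST2 1. The 15 of ZEB2 lay 753675 to 1511035 bases from the gene, in the desert toward ACVR2A. The 15 housekeeping genes had 0 (upper bound 20.4%).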

How the data were processed

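ATAC-seq was made from 5 ARID1A knockout and 5 control libraries of MDA-MB-231. The submitters' processing notes name Bowtie2 2.3.5.1, an aligner, MACS2 2.2.6, a peak caller, and the build hg38. Not given in the sources used here are the caller's threshold, duplicate handling, Tn5 shift, merging across libraries and the annotation used. Any of them could change the number and length of peaks. The deposited list has 17 columns and, per the file headers, gives positions, lengths and distances in bases with a class and nearest transcript per peak. It has 0 columns with a value per library, so depth is unknown and the planned knockout tests could not be run. Some rows may not be analysed here.

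Distant peaks were taken by class and distance. Gaps, chains and intervals were computed with Python 3.11.15, numpy 2.4.6 and pandas 2.3.3, and figures with matplotlib 3.10.9. The 4 interval tools equalled brute force on 1000 simulated intervals. Shares carry 95% Wilson intervals, and medians carry order-statistic intervals. Symbols, gene bodies, start windows and sequences came from RefSeq tables of GRCh38.p14. Ensembl identifiers took the symbol of the RefSeq gene at the same position (shared bases at least 0.8 of the union). In the table, genes of extra scaffolds carry a chromosome's name with their own low coordinates. So genes before the first transcript in the list, and genes named LOC within the first 10000000 bases that lack a start window, were left out (1327 of 59098, 165 of them protein-coding). Some scaffold genes may remain. Gene spans include centromeres and assembly gaps. Start windows were at hand for 15808 of 19809 protein-coding genes. The search of motifs in peaks needed a genome and was replaced by a search in start windows.

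The distant peaks, gene lists and tests were chosen with earlier results of these data known. Genes named are the 20 paired nearest genes with most distant peaks, with unpaired genes by identifier among the first 2, those beside the 5 fullest intervals, the nearest genes of the 10 fullest clusters, of the 5 longest and of the 5 farthest peaks, and up to 5 per list. Others, including KLF12, SIPA1L2, the lncRNAs printed, and genes beside clusters or around peaks, were chosen after their values were seen. A result that this rule covers, and with it 1 of the gene lists, is not reported here.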

Additional observations from a re-analysis of the deposited data

Results flagged for a closer look

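Outside chromosomes 1 to 22 and X, which the densities and deserts cover, 30 distant peaks lay on 9 unplaced contigs of the assembly. GL000225.1 held 11, KI270744.1 held 6, GL000205.2 held 5 and KI270442.1 held 3. They measured 127 to 965 bases. Contigs are short pieces of sequence, many of them repeats, on which the list annotates few transcripts, so a distance beyond 50000 bases there says little about distance from genes.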

How the results depend on the processing

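No paired analysis was possible because the deposited peaks carry no per-library values, and replicates could not be left out either. Of 23 alternatives, 21 moved a value by more than its limit. The limit was 1.5 times for counts and for the densities in and outside deserts, and the 95% interval for other values. Several alternatives change a cutoff or a denominator, which by itself moves the value. Counting from 100000 bases left 4526 distant peaks, 9.45% of distal intergenic peaks, with a median length of 473 bases. Keeping only peaks of at least the median length of all peaks left 5009 distant peaks and 48 clusters. Measuring from RefSeq protein-coding genes in place of transcript starts gave 22672 distal intergenic peaks beyond 50000 bases, and put 90 peaks at the top gene in place of 44. The share with the next distant peak close by became 25.1% at 5000 bases, 59.8% at 25000 bases, and 42.8% with the next peak of any class. Clusters numbered 56 with gaps of at most 5000 bases, 580 with 25000 bases, and 1167 with 3 or more peaks. The share in deserts was 43.6% from 1000000 bases and 7.21% with genes of every type. Per Mb of sequence over 50000 bases from a start named in the list, chromosomes 13, 20, 2 and 19 had 29.0, 25.8, 21.3 and 1.67 distant peaks, in place of 9.63, 5.76, 5.70 and 0.171. Chromosome 13 stayed above the other 22 chromosomes on both scales. Chosen after seeing the data, the density per Mb of reachable sequence was 14.5 in deserts and 30.5 in shorter intervals, in place of 8.31 and 2.02. Without contigs there were 11719 peaks, a count also chosen after seeing the data, and the planned median length was 483 bases.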

Other observations

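The peaks farthest from a start lay in long intervals between protein-coding genes, and centromere positions were not used here. On chromosome 1 peaks of 466 and 312 bases were 3599451 and 3387235 bases from the nearest start. On chromosome 17, peaks of 175 and 308 bases lay at 1591674 and 1061324 bases, between KCNJ18 and WSB1. On chromosome 12, a peak of 158 bases lay at 1365413 bases, between ALG10 and ALG10B. All 5 were shorter than the median distant peak. The mappability of reads there was not measured, so whether these peaks mark open DNA was not tested.

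Deserts at the other end of the range held no peak of any class. There were 9 of them among the 696. The longest, of 1.23 Mb, lies on chromosome 9 between DMRTA1, a DM-domain transcription factor gene, and ELAVL2, a neuronal RNA-binding protein gene. The next interval along, between ELAVL2 and IZUMO3, 692350 bases long, was also empty. Another lies on chromosome 18 between CDH7 and CDH19, both cadherin genes, and another on chromosome 3 between PDZRN3 and CNTN3. In contrast, on chromosome 4 the 1.37 Mb between BOD1L1 and CPEB2 held 49 peaks and no distant one. Copy number and mappability were not measured, so a deleted stretch, poor mappability and closed chromatin cannot be told apart in an empty desert.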
